A study of Mus musculus with 12 samples.

Results

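Stroma was compared with tumor in colorectal tumors of mice, as the mean of the tissue difference in Stat3dm mice and the tissue difference in Stat3wt mice. All 12 arrays of the series entered the comparison, 6 of stroma and 6 of tumor, with 3 arrays each of Stat3dm stroma, Stat3dm tumor, Stat3wt stroma and Stat3wt tumor. Of 16635 genes tested, 425 (2.55%) differed at an adjusted p under 0.05 in limma, and these are the genes called below: 141 (0.848%) were higher and 284 (1.71%) lower in stroma. Those lower in stroma included 14 of 27 tested epithelial identity genes and 5 of 21 subunits of the mitochondrial respiratory chain. Those higher in stroma included 18 of 23 pan-leukocyte genes, the chemokines Ccl5 and Ccl22, the chemokine receptor Ccr7 and the BMP antagonist Grem1.

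All mice carried autochthonous colorectal tumors raised with azoxymethane, a carcinogen, and dextran sulfate, a polymer in the drinking water that inflames the colon (AOM/DSS). In Stat3dm mice Stat3 was deleted conditionally in the myeloid lineage, and Stat3wt mice were wild type; no source used here gives the driver of the deletion, the strain, the age or the way areas were outlined. A sample was RNA from laser-capture microdissected, paraffin-embedded tissue of 2 tumors of one mouse, and 50 ng were amplified for 1 Affymetrix array. The study asked which stromal changes depend on STAT3 in myeloid cells, and the averaged difference asks which genes part the 2 cuts in both genotypes.

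A colonic adenoma is a growth of epithelial cells, which are joined by cadherins and desmosomes, filled with keratin filaments and, in part, specialised for secreting mucus. The surrounding stroma holds fibroblasts and their collagens, smooth muscle, vessels, nerves and leukocytes. In bulk RNA of such cuts, fewer cells of a type and less RNA per cell cannot be told apart, and this applies to each gene group below.

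The labelled tissues were checked on defining markers. All 6 epithelial markers set aside for this, Epcam, Cdh1, Krt8, Krt18, Krt20 and Cdh17, had averaged differences below 0. Krt8 and Krt20 did not pass (adjusted p = 0.0721 and 0.0842). The leukocyte markers Ptprc and Cd53 lay above 0. The fibroblast marker Pdgfra did not follow the others of its kind: its log2 signal was 5.16, 6.42 and 6.58 in Stat3dm stroma, 5.61, 6.38 and 6.38 in Stat3dm tumor, 6.69, 6.68 and 7.61 in Stat3wt stroma, and 6.76, 7.03 and 7.39 in Stat3wt tumor. Its averaged difference was -0.07 (95% interval -0.62 to 0.49, adjusted p = 0.890), and its sign turned under other settings. Stat3 itself had a log2 signal of 6.72 to 8.02 in the stroma arrays and 7.08 to 8.22 in the tumor arrays (averaged difference -0.22, adjusted p = 0.564), also with a sign that depended on the setting. In tissue of many cell types its probe set does not check a deletion in myeloid cells.

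The spread of log2 values within an array was lower in stroma on average. The ranges overlapped, with 1.60 to 1.76 in stroma and 1.65 to 1.91 in tumor. The standard deviation (SD) of an array's log2 values averaged 1.69 ± 0.06 in stroma and 1.78 ± 0.09 in tumor (SD, n = 6 each, two-sided exact permutation p = 0.0693), and the widest arrays were Stat3wt tumor 3 at 1.91 and Stat3dm tumor 3 at 1.85. The stroma minus tumor difference of genes moved with signal level. Over all genes tested the median stroma minus tumor difference was -0.03 on the log2 scale, but it was 0.11 in the 25% of genes with the lowest mean signal and -0.27 in the 25% with the highest, where 76.5% of genes lay below 0. The brightest 25% held 56 of the 141 higher calls and 204 of the 284 lower calls. The part of array spread and signal level in the results below was not tested beyond the refits that are named.

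The calls depended on single arrays. Refits without 1 array called between 0 and 1296 genes: 0 without Stat3wt stroma 3, Stat3dm tumor 2 or Stat3dm tumor 3, 1 without Stat3wt tumor 1, 6 without Stat3dm stroma 2, 45 without Stat3wt tumor 3, and 1296 without Stat3dm tumor 1. The other 5 refits called 574 (without Stat3dm stroma 1), 525 (without Stat3wt tumor 2), 272 (without Stat3wt stroma 1), 177 (without Stat3dm stroma 3) and 168 (without Stat3wt stroma 2). No gene was called in more than 9 of the 12 refits, which Ccl5 reached, and the median called gene was called in 4. All 425 called genes kept their sign in all 12 refits, but each refit shares 11 arrays with the fit that chose them, so their signs are no sign of stability. Across all 12 arrays 3703 genes had an unadjusted p under 0.05, and the smallest adjusted p was 0.0209.

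**Figure D1:**
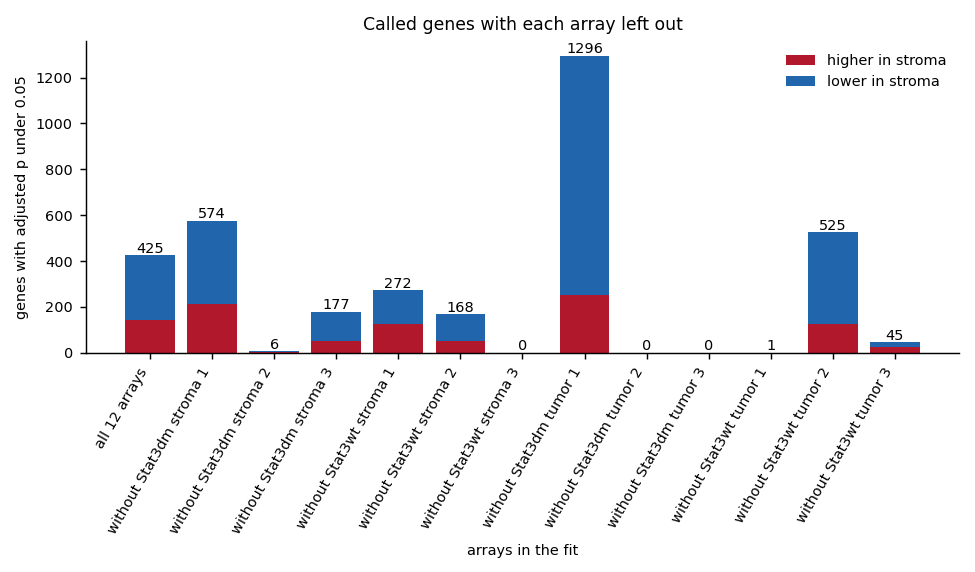
Number of genes with adjusted p under 0.05 in the averaged stroma minus tumor difference (vertical axis), with all 12 arrays and with each array left out in turn (horizontal axis). Red parts of the bars are genes higher in stroma and blue parts genes lower in stroma; the bars run between 0 and 1296 genes.

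Called rises spanned 0.51 to 1.74 on the log2 scale with a median of 0.80, and 32 of the 141 were 2-fold or more. Called falls spanned -0.50 to -2.07 with a median of -0.88, and 97 of the 284 were 2-fold or more. The 6 stroma arrays lay wholly above the 6 tumor arrays for 59 of the higher calls, against 0.721% of all genes tested, and wholly below them for 122 of the lower calls, against 1.33% of all genes; the calls were chosen on the same arrays, so nothing is read from these shares. The split of the calls moved with the scaling. Quantile normalization of the deposited values called 440 genes (246 higher, 194 lower), centring on array medians 168 (32 higher, 136 lower), and the spread of each array as a covariate 264 (228 higher, 36 lower).

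Epithelial identity genes gave 14 lower calls, the most of any list in that direction. All 27 tested members of the list lay below 0, where 53% of all genes tested did, and the median difference was -0.96 on the log2 scale, with -0.81 in Stat3dm and -1.0 in Stat3wt; 25 of the 27 belonged to the brightest 25% of genes, whose median was -0.27 and of which 4.905% were called lower. Krt18, a keratin of simple epithelia, had log2 signals of 8.39, 7.72 and 8.58 in Stat3dm stroma, 9.07, 9.69 and 9.93 in Stat3dm tumor, 9.49, 9.32 and 9.18 in Stat3wt stroma, and 10.70, 10.05 and 10.47 in Stat3wt tumor. Stroma lay below tumor without overlap within each genotype, while Stat3wt stroma reached the range of Stat3dm tumor. The averaged difference was -1.21 ± 0.19 (SE), or 2.31-fold lower in stroma (adjusted p = 0.0216).

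Epcam, an adhesion molecule of epithelial surfaces, did not overlap at all: it ran from 6.84 to 8.08 in the stroma arrays (median 7.89) and from 8.26 to 9.10 in the tumor arrays (median 8.81), a difference of -1.01 ± 0.21 (adjusted p = 0.0312). Elf3, an epithelial ETS transcription factor, spanned 6.95 to 8.23 in stroma and 8.27 to 9.05 in tumor and fell by 1.24 in stroma (adjusted p = 0.0255). Its gap was narrow, since Stat3dm stroma 1 at 8.23 lay just under the lowest tumor array. That stroma array was also the highest of its tissue for the whole epithelial list, with a median of 0.07 above the gene means, beside 0.09 in the lowest tumor array, Stat3dm tumor 1.

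Of the cadherins on the list, Cdh17, the liver-intestine cadherin, fell by 1.29 (adjusted p = 0.0294), with 6.12 to 7.84 in stroma against 7.73 to 8.55 in tumor, and Cdh1, E-cadherin, by 1.04 (adjusted p = 0.0450). Cdh1 overlapped between tissues, with 7.47 to 8.85 in stroma against 8.49 to 9.77 in tumor, and Stat3dm stroma 1 was its highest stroma array and Stat3dm tumor 1 its lowest tumor array. Other called members were the tight junction genes Cldn3 and Tjp3, the tetraspanins Tspan8 and Tspan1, the surface antigen Gpa33, the protease St14, the splicing regulator Esrp1 and the transcription factors Klf5 and Grhl2, with differences between -0.83 for Grhl2 and -1.20 for Tspan1. The integrin chains Itga3 and Itgb4, which anchor epithelium to its basement membrane, were called at -1.15 and -0.90; they were on no list and were picked out after their values were seen. With the spread of each array as a covariate 3 epithelial list members kept a call, with a list median of -0.79. The fit without the 2 widest arrays called 0 of all genes tested, and the list median there was -0.82.

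Mucus and goblet cell genes gave 5 lower calls among 16 tested members, of which 15 lay below 0, with a median of -0.93 (Stat3dm -0.42, Stat3wt -1.08). Of the 16, 11 lay among the brightest genes, as grouped above by mean signal. In that group the median was -0.27 and 4.905% of genes were called lower. With array spread as a covariate 1 goblet list member kept a call, with a list median of -0.56. Centring on array medians called 1 (median -0.99) and quantile normalization 4 (median -0.87). Klk1, a tissue kallikrein, was 6.47, 5.59 and 7.19 in Stat3dm stroma and 7.10, 7.63 and 7.99 in Stat3dm tumor, against 4.22, 4.93 and 5.46 in Stat3wt stroma and 7.94, 7.42 and 6.88 in Stat3wt tumor. The averaged difference was -1.85 ± 0.29 (adjusted p = 0.0216), made of -1.16 in Stat3dm and -2.55 in Stat3wt, and Stat3dm stroma 3 overlapped the tumor arrays. The difference between genotypes did not pass (1.39, 95% interval 0.16 to 2.62, adjusted p = 0.995).

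Tff3, the trefoil peptide of goblet cells, was 7.68 to 9.64 in stroma (median 9.02) and 9.63 to 10.34 in tumor (median 9.83), lower by 2.11-fold in stroma (adjusted p = 0.0385). Spink4, a goblet cell peptide related to trypsin inhibitors, was 8.46 to 10.32 in stroma and 10.37 to 11.19 in tumor, so the tissues did not overlap (-1.32 ± 0.31, adjusted p = 0.0397). The lectin Zg16 was called at -1.26, but its difference was -0.10 in Stat3dm and -2.41 in Stat3wt. Muc2, the main gel-forming mucin of the colon, was at -0.96 and did not pass (adjusted p = 0.0797).

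Secreted proteins were among the largest falls. Clca4b, of a family of calcium-activated chloride channel regulators, fell by 2.07 (SE 0.43, adjusted p = 0.0325); its log2 signal was 4.73 to 8.51 in stroma (median 7.38) and 8.07 to 10.20 in tumor (median 9.29). Spink1, a secreted trypsin inhibitor, fell by 1.81, or 3.51-fold (adjusted p = 0.0294). Spink1 was 8.0, 8.42 and 7.89 in Stat3dm stroma and 9.42, 9.58 and 9.12 in Stat3dm tumor, against 5.49, 8.48 and 6.87 in Stat3wt stroma and 9.17, 9.13 and 9.61 in Stat3wt tumor. The tumor arrays lay close together and above every stroma array, while the stroma arrays ranged widely, with Stat3wt stroma 1 the lowest.

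Antimicrobial and Paneth-like genes had 13 tested members, all below 0 and all in the brightest 25% of genes, with a median of -1.22 and 4 called lower. These were Mmp7, a matrix metalloproteinase that activates defensins (-1.54, adjusted p = 0.0297), the mucosal scavenger protein Dmbt1 (-1.52, adjusted p = 0.0249), the phospholipase Pla2g2a (-1.37, adjusted p = 0.0486) and Lypd8, which binds flagella of gut bacteria (-1.13, adjusted p = 0.0312). Mmp7 was 6.10 to 8.67 in stroma and 7.35 to 9.82 in tumor, separate within each genotype, while Stat3wt stroma lay above Stat3dm tumor 1. A second Mmp7 probe set gave -0.57. Dmbt1 overlapped between tissues, with 7.23 to 10.56 in stroma and 9.64 to 11.18 in tumor. Array by array the list was uneven, with Stat3dm tumor 1 at -0.70 against the gene means and the other tumor arrays between 0.69 and 1.56.

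Other falls among the largest were of Krt36, a keratin known from hair and nail (-1.60, adjusted p = 0.0283), Wfdc18, a small secreted protein with a whey acidic protein domain (-1.49, adjusted p = 0.0216), and Fut2, the fucosyltransferase that makes the H antigen on mucins (-1.33, adjusted p = 0.0283). Krt36 was 3.57, 4.41 and 3.74 in Stat3dm stroma and 4.54, 6.56 and 5.53 in Stat3dm tumor, against 5.94, 5.88 and 6.14 in Stat3wt stroma and 7.45, 7.0 and 8.20 in Stat3wt tumor. The Stat3dm arrays lay lower than the Stat3wt arrays in each tissue, and the tissue difference was similar in size, at -1.64 in Stat3dm and -1.56 in Stat3wt. Fut2 was 5.24 to 7.08 in stroma and 6.88 to 7.66 in tumor.

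Absorptive colonocyte genes were mixed, with 16 of 23 tested members below 0, 3 called lower (Clca4b, Hsd17b2 and Ceacam20) and a median of -0.30. Only 9 of the 23 lay in the brightest 25% of genes, whose median was -0.27. Stem cell and Wnt target genes all lay below 0, 20 of 20, with a median of -0.62. Of the 20, 15 lay in the brightest 25% of genes, where 76.5% of genes lay below 0. In the fit with array spread as a covariate their median was -0.26, 3 lay above 0 and 0 were called. In the main fit 2 of the list were called. Sox9, a transcription factor of crypt progenitors, fell by 1.14 (adjusted p = 0.0369) and Prom1 by 0.90 (adjusted p = 0.0484). Sox9 was 6.47 to 7.96 in stroma and 7.39 to 9.21 in tumor, separate within each genotype. Nkd1, a Wnt feedback inhibitor, had the lowest value of the list, -1.77, and did not pass (adjusted p = 0.0559). Dkk2, a secreted Wnt antagonist on no list used here and picked out after its value was seen, fell by 0.93 (adjusted p = 0.0283). All 24 tested cell cycle genes lay below 0 with a median of -0.43, and none was called. Of the 24, 12 lay in the brightest 25% of genes, and the median was -0.25 with array spread as a covariate.

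**Figure D2:**
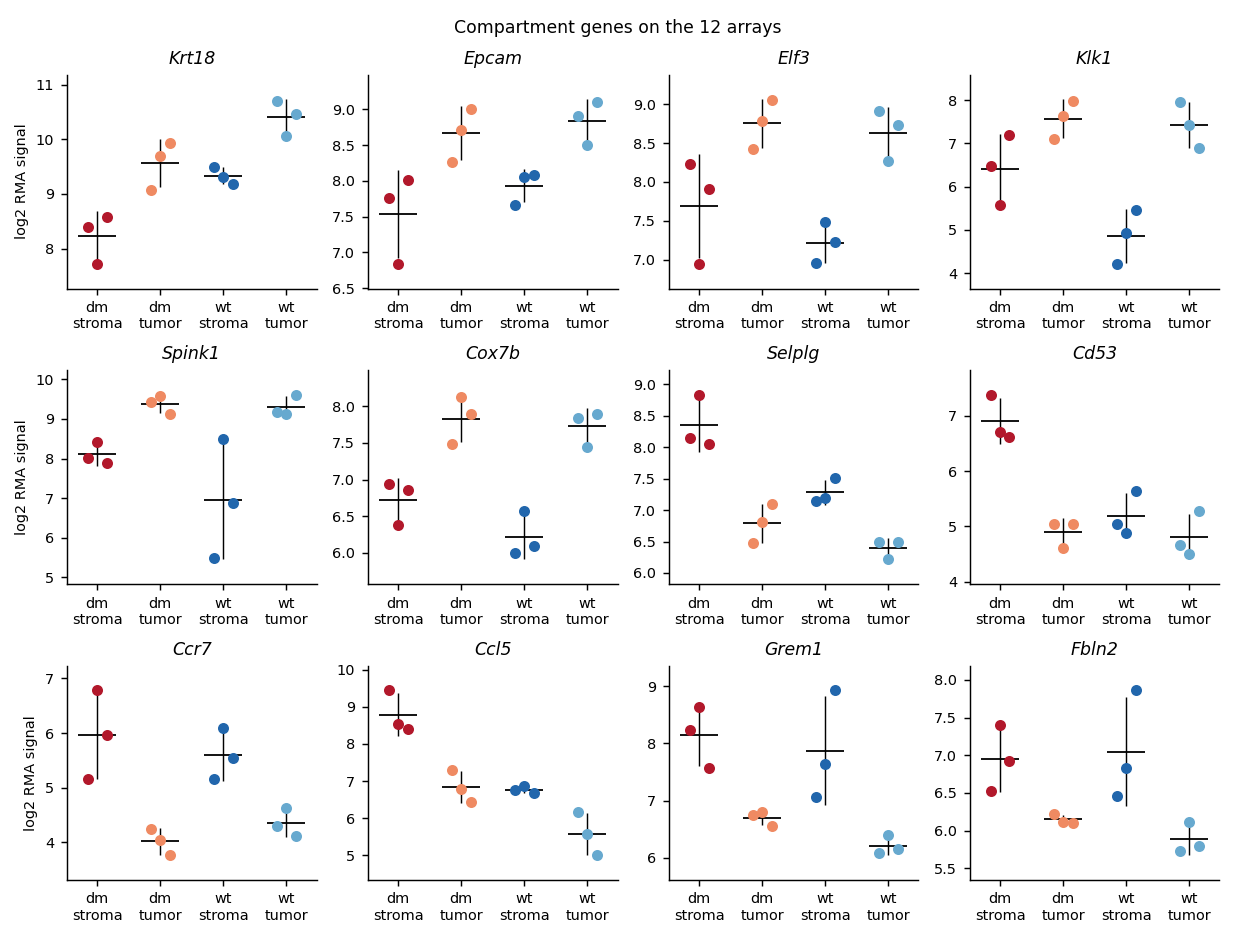
Log2 signal of 12 named genes on each of the 12 arrays (points), with the group mean (horizontal bar) and SD (vertical bar, n = 3), for Stat3dm stroma, Stat3dm tumor, Stat3wt stroma and Stat3wt tumor. Epcam, Elf3, Spink1 and Cox7b lay lower in all 6 stroma arrays than in any tumor array, and Selplg, Ccr7, Grem1 and Fbln2 lay higher.

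Respiratory chain genes encode the subunits of mitochondrial complexes that oxidise substrates and make ATP. All 21 tested members of the list lay below 0, 5 were called lower, and the median was -0.58 (Stat3dm -0.56, Stat3wt -0.59); 16 of the 21 lay in the brightest 25% of genes, with its median of -0.27. Cox7b, a small subunit of cytochrome c oxidase, was 5.99 to 6.94 in stroma (median 6.48) and 7.44 to 8.12 in tumor (median 7.87). It did not overlap, and its difference of -1.31 ± 0.17 was 2.48-fold (adjusted p = 0.0209). A second Cox7b probe set gave -0.12, and the mean over both -0.71.

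The other called members were Cox4i1, Cox5a, Cox5b and Ndufa4, at -0.69, -0.84, -0.82 and -0.94. The mean over the probe sets of Cox5b gave -0.35. Cox4i1 was 8.17 to 8.88 in stroma and 8.96 to 9.53 in tumor, again without overlap (adjusted p = 0.0312). Chchd10, a protein of the mitochondrial intermembrane space, was not on the list and fell by 1.3, with 6.10 to 7.10 in stroma and 7.66 to 8.34 in tumor (adjusted p = 0.0216). Taking all symbols that begin with Nduf, Uqcr, Cox4 to Cox8 or Atp5, a grouping made after values were seen, 73 of 81 tested genes lay below 0 and 25 were called lower, with a median of -0.54. With array spread as a covariate 7 of them were called, with a median of -0.35. Without the 2 widest arrays, where 0 of all genes tested were called, the median was -0.44. Cytoplasmic ribosomal proteins, also bright, had 16 of 19 members below 0 with a median of -0.33 and no call.

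The promoters of 3 called genes are shown because respiratory chain promoters often carry the letters bound by NRF1, a transcription factor of nuclear genes for mitochondria, and those of leukocyte genes the letters bound by PU.1, the myeloid and B cell factor encoded by Spi1. Each run is the 250 bases before the RefSeq start (GRCm38.p6), 5′ to 3′ on the gene's strand, with the searched letters in capitals: GCGCA, any base and GCGC for NRF1, and GAGGAAGT for PU.1, each on both strands.
Ndufa11, NRF1, chr17:56717512-56717761, plus strand: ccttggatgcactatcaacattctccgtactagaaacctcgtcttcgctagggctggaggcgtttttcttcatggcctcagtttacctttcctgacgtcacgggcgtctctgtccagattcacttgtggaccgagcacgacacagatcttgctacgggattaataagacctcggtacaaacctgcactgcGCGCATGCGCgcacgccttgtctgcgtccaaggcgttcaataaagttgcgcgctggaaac
Cox6a1, NRF1, chr5:115348959-115349208, minus strand: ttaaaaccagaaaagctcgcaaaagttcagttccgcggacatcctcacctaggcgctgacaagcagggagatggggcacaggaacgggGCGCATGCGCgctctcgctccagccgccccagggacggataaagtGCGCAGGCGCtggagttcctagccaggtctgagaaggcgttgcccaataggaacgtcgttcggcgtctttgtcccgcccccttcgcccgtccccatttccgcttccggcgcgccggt
Cd37, PU.1, chr7:45238840-45239089, minus strand: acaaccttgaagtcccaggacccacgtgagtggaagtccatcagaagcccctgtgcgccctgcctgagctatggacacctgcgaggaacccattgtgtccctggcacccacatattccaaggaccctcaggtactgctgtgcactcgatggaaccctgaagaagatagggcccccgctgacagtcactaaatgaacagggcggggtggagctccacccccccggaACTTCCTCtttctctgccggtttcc

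Ndufa11, a subunit of complex I, was called at -0.88 (adjusted p = 0.0283), Cox6a1 of cytochrome c oxidase at -0.60 (adjusted p = 0.0391) and the tetraspanin Cd37 at 0.97 (adjusted p = 0.0403). The mean over the probe sets of Ndufa11 gave -0.46. Windows reaching 50 bases past the start were available for 12947 of the genes tested. The NRF1 letters were in 8.84% of them, in 16 of 70 respiratory chain and ATP synthase genes (22.9%), and in 5 of the 21 of these that were called. Of all genes called lower in stroma 20 of 214 had them (9.35%), near the share of all windows, and of those called higher 2 of 90 (2.22%). The PU.1 letters were in 3.43% of all windows, in 3 of 17 pan-leukocyte genes, in 8 of 90 genes called higher in stroma (8.89%) and in 6 of 214 called lower (2.8%). For epithelial genes the letters AACCNGTT of grainyhead factors (N is any base) and CAAAGTCCA of HNF4 were searched on both strands too. Each was in 0 of 18 epithelial windows, beside 2.27% and 0.548% of all windows. The HNF4 letters were in 4 of 214 genes called lower in stroma (1.87%) and 0 of 90 called higher. The grainyhead letters were in 5 of 214 called lower (2.34%) and 3 of 90 called higher (3.33%). These counts describe letters in a window and were not tested.

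Pan-leukocyte genes gave 18 higher calls, the most of any list in that direction. All 23 tested members lay above 0, where 47% of all genes tested did, with a median of 0.85 on the log2 scale (Stat3dm 1.26, Stat3wt 0.50). Selplg, the leukocyte ligand of P-selectin, was 8.15, 8.83 and 8.05 in Stat3dm stroma, 6.48, 6.80 and 7.09 in Stat3dm tumor, 7.14, 7.19 and 7.50 in Stat3wt stroma, and 6.49, 6.22 and 6.50 in Stat3wt tumor. No stroma array overlapped a tumor array, and the difference was 1.22 ± 0.17, or 2.33-fold (adjusted p = 0.0209). Its second probe set gave 1.12.

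Itgb2, the shared chain of the leukocyte integrins, was 6.85 to 8.32 in stroma and 6.04 to 6.81 in tumor (1.18 ± 0.19, adjusted p = 0.0216). Coro1a, an actin regulator of leukocytes, was 7.08 to 8.73 in stroma and 6.59 to 6.92 in tumor (1.06 ± 0.17, adjusted p = 0.0216). Both were separate over all 12 arrays. Ptprc, the common leukocyte antigen CD45, rose by 1.12 (adjusted p = 0.0363), but its stroma arrays, 5.27 to 7.47, overlapped the tumor arrays, 4.79 to 5.98. Stat3wt stroma 1 was the lowest stroma array and Stat3wt tumor 3 the highest tumor array.

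Cd53, a tetraspanin of leukocytes, was called on the average of unlike differences. It was 7.38, 6.71 and 6.62 in Stat3dm stroma and 5.05, 4.60 and 5.03 in Stat3dm tumor, against 5.05, 4.88 and 5.65 in Stat3wt stroma and 4.66, 4.50 and 5.28 in Stat3wt tumor. The averaged difference was 1.19 ± 0.20 (adjusted p = 0.0216), with 2.01 in Stat3dm and 0.38 in Stat3wt, where the tissues overlapped. The difference between genotypes was 1.63 (95% interval 0.78 to 2.48) and did not pass over all genes (adjusted p = 0.995). Cd86, a costimulatory molecule of antigen-presenting cells, was the 1 called gene with opposite signs in the genotypes, 1.16 in Stat3dm and -0.07 in Stat3wt.

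The remaining called members were Laptm5, Hcls1, Rac2, Arhgdib, Lcp2, Lcp1, Ikzf1, Spi1, Cytip, Cd37, Cd52, Itgal and Was, genes of leukocyte signalling, cytoskeleton and lineage control, with differences between 0.62 for Itgal and 1.11 for Laptm5. Per array the list median stood 0.60 to 1.13 above the gene means in Stat3dm stroma, and at -0.30, -0.14 and 0.42 in Stat3wt stroma, against -0.56 to -0.26 in the 6 tumor arrays. Stat3wt stroma 1 was thus within the range of the tumor arrays. Quantile normalization called 19 of the 23, array spread as a covariate 18 and centring on medians 6. The fit without the 2 widest arrays called 0 of all genes tested. In these fits the list median lay between 0.78 and 1.10.

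Lists of single leukocyte types gave few calls, each beside a positive median. Macrophage and monocyte genes had 20 of 22 members above 0 and a median of 0.69 (Stat3dm 0.99, Stat3wt 0.38). Per array the list stood at -0.50, -0.01 and 0.84 in Stat3wt stroma and 0.39 to 0.78 in Stat3dm stroma. The 6 tumor arrays ran from -0.46 to -0.10, so Stat3wt stroma 1 lay below them all. Ccr2, the receptor that recruits monocytes (0.84, adjusted p = 0.0283), and the adaptor Tyrobp (0.91, adjusted p = 0.0403) were called. The macrophage markers Adgre1, Csf1r and Cd68 were at 0.90, 0.91 and 0.81 and did not pass (adjusted p = 0.0599, 0.0721 and 0.0927). All 14 T cell genes lay above 0 with a median of 0.61, and 2 were called: the interleukin-7 receptor Il7r (1.02, adjusted p = 0.0216) and the costimulator Icos (0.51). Il7r was 4.51 to 5.77 in stroma and 3.43 to 4.56 in tumor, a slight overlap.

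B cell genes had 12 of 13 members above 0 and a median of 0.64 (Stat3dm 0.94, Stat3wt 0.47). The 3 calls were the coactivator Pou2af1 (1.13, adjusted p = 0.0283), the antigen receptor chain Cd79b (0.96, adjusted p = 0.0478) and the follicle-homing receptor Cxcr5 (0.71, adjusted p = 0.0362). Pou2af1 was 5.72 to 7.02 in stroma and 4.59 to 5.33 in tumor, without overlap. The 2 largest of all called rises, picked out after their values were seen, were of immunoglobulin light chain segments, Iglv1 at 1.74 and Igkv4-72 at 1.61. Both were separate in Stat3dm and overlapped in Stat3wt, and near-identical segments can share probes. Dendritic cell and MHC class II genes had 17 of 18 members above 0 and a median of 0.40, with Ccr7 and Cd86 called.

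Ccr7, Ccl5, Grem1 and Ccl22 had the 4 largest rises among called genes whose tissues were separate within both genotypes. Ccr7, the receptor that guides dendritic cells and lymphocytes into lymphoid tissue, was 5.15, 6.78 and 5.97 in Stat3dm stroma, 4.25, 4.03 and 3.77 in Stat3dm tumor, 5.16, 6.09 and 5.54 in Stat3wt stroma, and 4.31, 4.63 and 4.11 in Stat3wt tumor. The tissues did not overlap, and the difference was 1.60 ± 0.24, or 3.03-fold (adjusted p = 0.0216). Ccl22, a chemokine of dendritic cells and macrophages that attracts T cells, was 5.90 to 7.55 in stroma and 4.82 to 5.60 in tumor (1.49 ± 0.25, adjusted p = 0.0216), again without overlap.

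Ccl5, a chemokine of T and NK cells, was 9.44, 8.52 and 8.39 in Stat3dm stroma and 7.30, 6.78 and 6.44 in Stat3dm tumor, against 6.77, 6.87 and 6.67 in Stat3wt stroma and 6.15, 5.57 and 5.01 in Stat3wt tumor. Within each genotype stroma lay above tumor, but Stat3wt stroma stood at the level of Stat3dm tumor. The averaged difference was 1.57 ± 0.23, or 2.96-fold (adjusted p = 0.0216). Among symbols that begin with Ccr or Cxcr, a grouping made after values were seen, all 12 tested genes lay above 0 and Ccr7, Ccr2, Cxcr4 and Cxcr5 were called. The listed inflammatory chemokines had 13 of 18 members above 0, no call, and medians of 0.67 in Stat3dm and 0.02 in Stat3wt.

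Further large rises were of Cyth4, an exchange factor for ARF GTPases (1.27, adjusted p = 0.0216), Selp, the P-selectin of endothelium and platelets (1.15, adjusted p = 0.0283), Il10ra, the interleukin-10 receptor (1.10, adjusted p = 0.0216), the inhibitory IgG receptor Fcgr2b (1.07, adjusted p = 0.0283), and Klf2, a transcription factor of quiescent lymphocytes and endothelium (1.04, adjusted p = 0.0249). Il10ra was 5.53 to 6.84 in stroma and 4.96 to 5.50 in tumor. Fcgr2b was 6.22 to 7.59 in stroma and 5.67 to 5.92 in tumor. Each of these 2 genes was separate over all arrays. Alox5ap, which serves leukotriene synthesis and stood on the tuft cell list, rose by 1.06 (adjusted p = 0.0294), and no other tuft gene was called.

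Fibroblast and matrix genes gave few calls, and most members did not pass. Of the fibroblast list 22 of 23 members lay above 0 with a median of 0.51, and Dcn, Fbln2 and Thy1 were called. Of the collagen and matrix list 31 of 32 lay above 0 with a median of 0.51, and Bgn, Sparc and Col4a1 were called. Grem1, a secreted BMP antagonist of subepithelial fibroblasts and muscle, was the only call among 17 niche and BMP genes, of which 12 lay above 0.

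Grem1 was 8.23, 8.64 and 7.56 in Stat3dm stroma, 6.74, 6.80 and 6.55 in Stat3dm tumor, 7.05, 7.64 and 8.93 in Stat3wt stroma, and 6.08, 6.39 and 6.16 in Stat3wt tumor. Stroma and tumor arrays did not overlap, and the difference was 1.56 ± 0.27, or 2.94-fold (adjusted p = 0.0249), with 1.44 in Stat3dm and 1.67 in Stat3wt. Dcn, the small collagen-binding proteoglycan decorin, was 9.02 to 10.79 in stroma and 7.99 to 9.44 in tumor (1.29 ± 0.29, adjusted p = 0.0389); Stat3wt tumor 3 reached into the stroma range. Fbln2, a basement membrane fibulin, was 6.46 to 7.86 in stroma and 5.74 to 6.22 in tumor, without overlap (0.98 ± 0.22, adjusted p = 0.0379).

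Thy1, a surface glycoprotein of fibroblasts and T cells, was 6.73 to 7.86 in stroma and 6.12 to 6.71 in tumor (0.80, adjusted p = 0.0361). Bgn, the proteoglycan biglycan, rose by 0.99 (adjusted p = 0.0484), Sparc, a collagen chaperone of the matrix, by 0.79 (adjusted p = 0.0400), and Col4a1, a chain of basement membrane collagen, by 0.70 (adjusted p = 0.0450). The fibrillar collagens Col1a1 and Col3a1 were at 0.69 and 0.72 and did not pass (adjusted p = 0.0879 and 0.0967). Stat3wt stroma 3 was the highest array for fibroblast, matrix, muscle and vessel genes, with list medians of 0.83, 0.96, 0.79 and 0.86 above the gene means. Without that array no gene was called. Centring on array medians left no call in the fibroblast and matrix lists, and quantile normalization called 8 and 10 members.

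Vessel genes had 20 of 22 members above 0, a median of 0.57 and 5 calls. Erg, an endothelial ETS transcription factor, was 5.48 to 5.88 in stroma and 4.67 to 5.37 in tumor, without overlap and with little spread in stroma (0.66 ± 0.13, adjusted p = 0.0312). Plvap, of the diaphragms of fenestrated endothelium, rose by 0.89 (adjusted p = 0.0361), Vwf, the von Willebrand factor, by 0.69 (adjusted p = 0.0391), the TGF-beta coreceptor Eng by 0.71 (adjusted p = 0.0464) and the lymphatic hyaluronan receptor Lyve1 by 0.58. Prox1, a transcription factor of lymphatic endothelium, lay at -1.22 and did not pass (adjusted p = 0.128). All 19 smooth muscle and pericyte genes lay above 0 with a median of 0.40, and none was called.

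Complement genes gave 3 calls among 13 tested. C4b, a complement component, was 6.93 to 9.28 in stroma and 6.47 to 7.95 in tumor (1.39 ± 0.33, adjusted p = 0.0434). Serping1, the C1 inhibitor, was 7.87 to 8.94 in stroma and 6.91 to 7.77 in tumor (1.01 ± 0.22, adjusted p = 0.0367). Properdin, Cfp, was 5.88 to 7.02 in stroma and 5.42 to 5.77 in tumor (0.91 ± 0.17, adjusted p = 0.0290). The last 2 did not overlap between tissues.

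Several lists gave no call in either direction: enteroendocrine cells (9 tested), enteric glia and neurons (11), adipocytes and mesothelium (7), mast cells and eosinophils (12), neutrophils (13), matrix proteases and inhibitors (18), and skeletal muscle and erythroid genes (6). Their medians lay between -0.05 for enteroendocrine genes and 0.37 for proteases and inhibitors. The cytotoxic and NK cell list had 1 call, Ccl5, among 10. With array spread as a covariate the medians of the glia, adipocyte, tuft, cytotoxic and muscle lists turned to just below 0, and the sign of the enteroendocrine median also depended on the setting, so no direction is given for these 6.

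**Figure D3:**
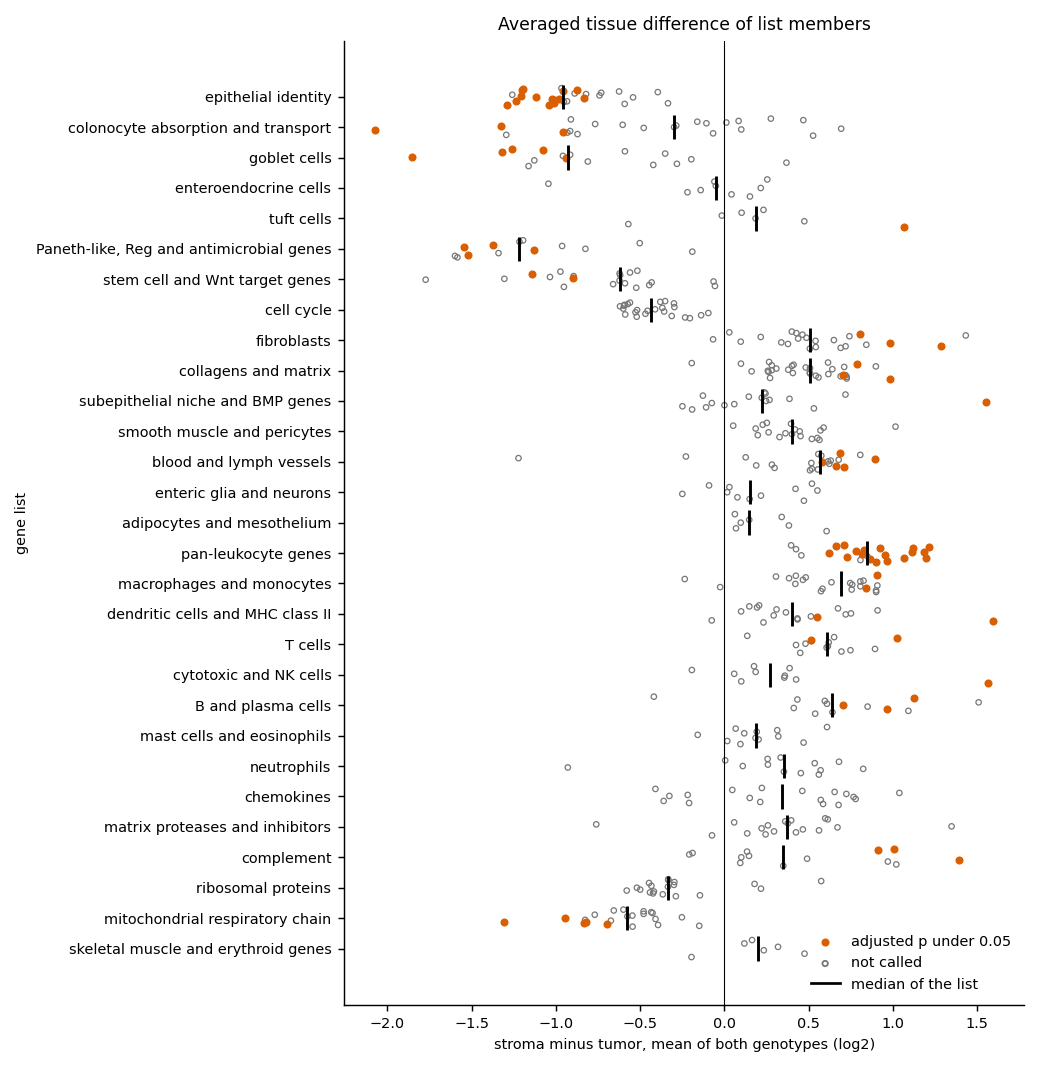
Averaged stroma minus tumor difference on the log2 scale (horizontal axis) of each tested member of 29 gene lists (vertical axis). Filled points have adjusted p under 0.05, open points do not, and black ticks mark list medians, which lie at -0.96 for epithelial identity and at 0.85 for pan-leukocyte genes.

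**Figure D4:**
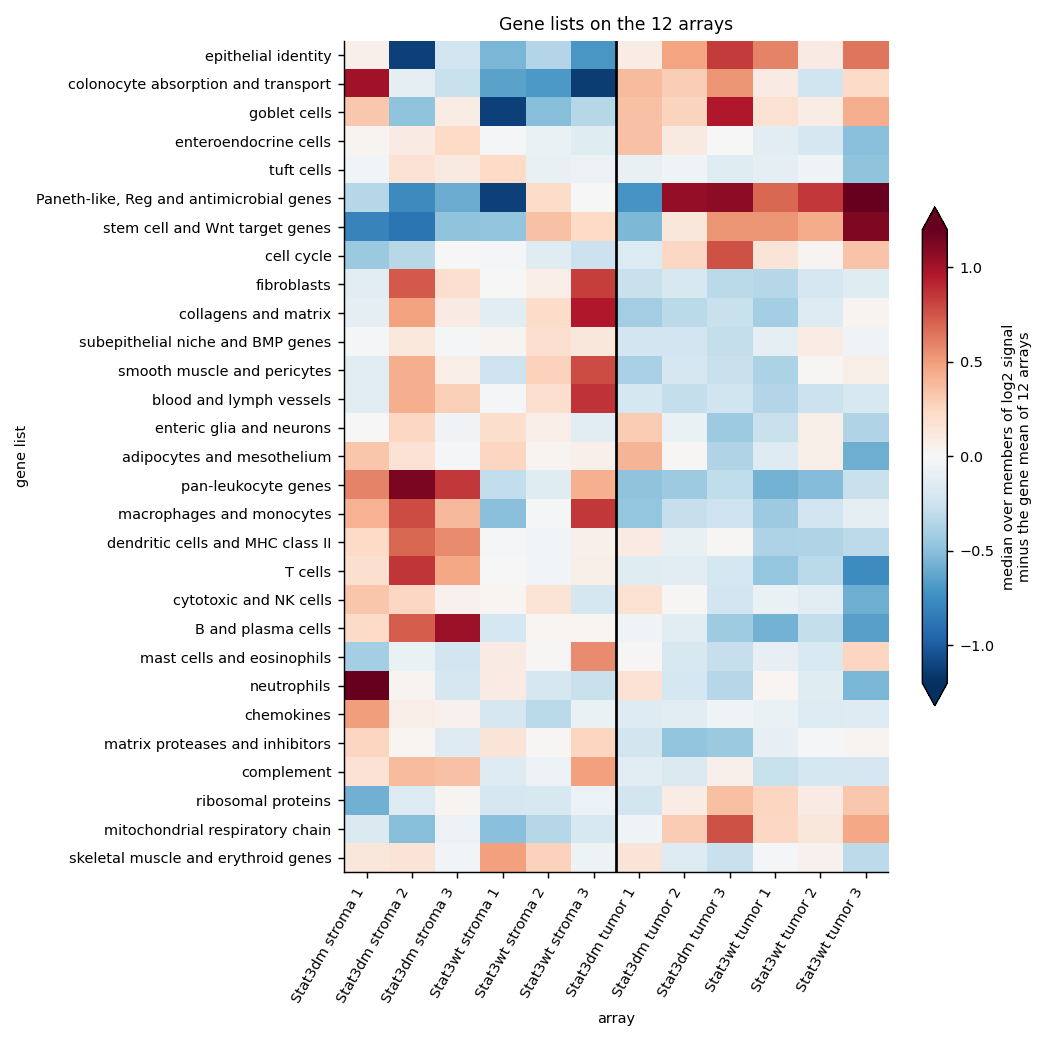
Median over each list's members of the log2 signal minus the gene's mean of the 12 arrays (colour scale), for 29 lists (rows) on the 6 stroma arrays (left of the line) and the 6 tumor arrays (right). The epithelial list is lowest in Stat3dm stroma 2 at -1.12, and the neutrophil list is highest in Stat3dm stroma 1 at 1.47.

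The tissue difference had the same sign in both genotypes for 424 of the 425 called genes, and the 3 stroma arrays lay wholly above the 3 tumor arrays in each genotype for 91 of the 141 higher calls (1.48% of all genes tested) and wholly below them for 189 of the 284 lower calls (2.77% of all genes). The genes were called on the mean of these same differences, which favours both counts, so they are given as descriptions. Of the calls, 101 of the 141 higher ones and 89 of the 284 lower ones had the larger difference in Stat3dm. Tested in each genotype alone in the same limma fit, 0 genes passed, with 1610 genes at an unadjusted p under 0.05 in Stat3dm and 2783 in Stat3wt.

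Genes chosen in one genotype were read in the other, which shares no array with it. The widest arrays, Stat3dm tumor 3 and Stat3wt tumor 3, fell in different genotypes. Their deviations from the group means correlated at 0.69 over genes. The counts below are set beside all genes, not genes of like signal level. The part of array spread and signal level in them was not tested. Of the 100 genes with the smallest p among those higher in stroma in Stat3dm, 95 were above 0 in Stat3wt, where 46.7% of all genes were, with a median of 0.57. Of the 100 lower in Stat3dm, 99 were below 0 in Stat3wt (53.3% of all genes), with a median of -0.88. In the other direction 88 of 100 higher in Stat3wt were above 0 in Stat3dm (45.5% of all genes, median 0.49), and 98 of 100 lower were below 0 (54.5%, median -0.79). Over all 16635 genes the Stat3dm and Stat3wt differences correlated at Pearson's r = 0.58 and Spearman's rho = 0.56, a description across genes, which are not independent and share signal level.

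**Figure D5:**
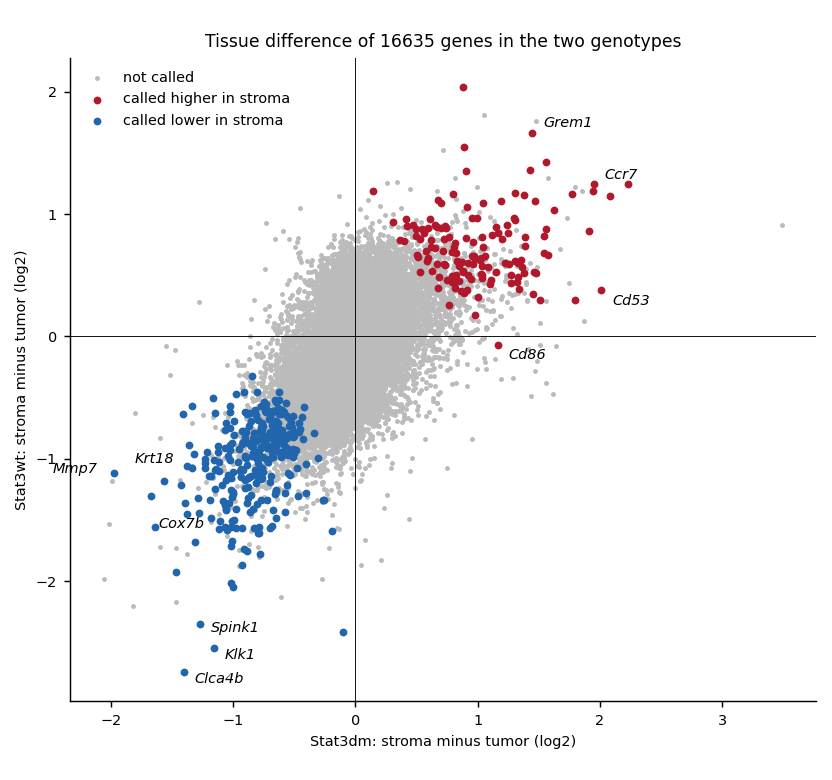
Stroma minus tumor difference on the log2 scale in Stat3dm (horizontal axis) and in Stat3wt (vertical axis) for 16635 genes. Red points were called higher and blue points lower in the averaged difference, and grey points were not called; all called genes but Cd86 lie in the quadrants of like sign.

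The test of a difference between genotypes called 0 of 16635 genes (0%), with 401 at an unadjusted p under 0.05 and a smallest adjusted p of 0.995 (limma). Of the 425 called genes, 18 had an unadjusted p under 0.05 in that test. The precision was limited: among the called genes the median size of the genotype difference was 0.29 on the log2 scale and the median half-width of its 95% interval 0.78. For Grem1 the interval of Stat3dm minus Stat3wt ran from -1.36 to 0.92, for Epcam from -1.12 to 0.67 and for Ccl22 from -0.91 to 1.19.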

How the data were processed

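RNA of 6 stroma and 6 tumor samples of laser-captured AOM/DSS tumors was hybridised to 1 single-colour array each. The authors deposited log2 signals per probe set, summarised by robust multi-array average (RMA) in Expression Console 1.3.1 of Affymetrix, as the submitters' processing notes name them. RMA equalises the distribution of probes between arrays, so array-wide changes in RNA are not measured. No source used here gives the build and annotation behind the probe sets. The number of arrays limits the precision.

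Of 41345 probe sets 23521 had 1 symbol in the platform annotation, 1814 had several and 16010 were not listed. RefSeq (GRCm38.p6) changed 0 symbols. They gave 22180 genes, and 1082 with several probe sets were read from the one with the highest mean. Genes with a mean in the lowest 25%, under 3.65, were not tested. The 4 group means were fitted in limma 3.58.1 (R 4.3.3, eBayes, Benjamini-Hochberg over 16635 genes, 0.05); the contrasts were the mean of both tissue differences and the difference between them. Adjusted p-values are from this fit. Array measures were compared by exact permutation (scipy 1.17.1). Scripts were tested on simulated data.

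Named genes are the 15 largest rises and falls among calls separate within both genotypes, the 4 smallest p of each of 29 lists, marker genes and Stat3; further called list members and members of other groups were named after their values were seen. Members and lists (558 names) were chosen with earlier results of these data known. Alternatives were other scalings, filters, models, array weights, blocks and single arrays left out. Replicates are mice, but the labels do not say whether a stroma and a tumor sample of equal number share one.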

Additional observations from a re-analysis of the deposited data

Results flagged for a closer look

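On Stat3dm stroma 1 the median of the 13 neutrophil genes stood 1.47 above the gene means, far from the next stroma array at 0.0984. In the tumor arrays the same list ran from -0.55 to 0.17. The tuft cell list stood at -0.481 on Stat3wt tumor 3, far from the next tumor array at -0.144, beside -0.09 to 0.24 in the stroma arrays. A total of 60 list and array measures by tissue, each over 6 arrays were examined, and these 2 stood apart; chance sets apart about 1 in 20 such groups.

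Tbx3os2, an antisense transcript beside Tbx3, had differences of opposite sign that were separate in each genotype: stroma minus tumor was 0.64 in Stat3dm and -0.68 in Stat3wt, a difference between genotypes of 1.32 (95% interval 0.67 to 1.98) that did not pass over all genes (adjusted p = 0.995 in limma). It was 1 of 29 genes (0.174% of 16635) that were separate in each genotype in opposite directions, and the one of them with the smallest unadjusted p for the difference between genotypes. Array signals do not tell a transcript from its antisense partner where a probe's strand is not given. No cause was tested for any of these values.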

How the results depend on the processing

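The count of called genes ran from 0 to 3834 over the alternatives. It was 440 after quantile normalization, 168 after centring each array on its median, 341 without a filter on dim genes, 482 with the lowest 50% left out (which moved the median of all genes to -0.13), 420 with the mean over probe sets, 517 in an additive model and 328 with a mean-variance trend. It was 264 with array spread as a covariate, of which 114 were among the 425, and 3834 with array weights, whose estimation did not converge. Left out in turn, single arrays gave 0 to 1296. Chosen after seeing the data, the fit without Stat3dm tumor 3 and Stat3wt tumor 3 called 0 genes (2172 at an unadjusted p under 0.05, smallest adjusted p 0.0563), and the 31009 probe sets past the filter in place of genes gave 0 (5578 at an unadjusted p under 0.05, smallest adjusted p 0.0671). Every one of the 425 called genes that was tested kept its sign in each fit of genes, all of which share arrays with the fit that chose them. The difference between genotypes called 0 genes except with array weights, where 4 were called; it was 0 with each single array left out.

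The labels give equal numbers in each group without saying that they mark the same mouse, so the numbers were not taken to pair samples. The deviations of equally numbered samples from their group means correlated, over genes, at 0.12, 0.16 and 0.30 in Stat3dm and 0.44, -0.004 and 0.51 in Stat3wt. Those of Stat3dm tumor 3 and Stat3wt tumor 3, of different genotypes, correlated at 0.69, so such correlations cannot decide the pairing. With the replicate number as a block the count was 1876 (fixed block) or 1648 (random block), all 425 among them, and the genotype difference 0 in both.

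The values of 3 genes that did not pass changed sign. Stat3 was at 0.0197 after quantile normalization, 0.28 with array spread as a covariate and 0.0387 without the 2 widest arrays. Pdgfra was at 0.15, 0.36 and 0.0795 in these fits, and ran from -0.22 to 0.16 with single arrays left out. Tbx3os2 was at 0.0109 with array weights, 0.0924 with array spread as a covariate and 0.0228 without the 2 widest arrays, and ran from -0.0866 to 0.0687 with single arrays left out. The causes were not tested. With 3 arrays a group, precision was limited by their number.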

Other observations

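Groups of genes that no list covered were formed after the values were seen, and their counts are descriptions. Of 17 tested cholesterol synthesis enzymes 6 were called lower in stroma and 11 did not pass, with all 17 below 0 and a median of -0.65. The called ones included Hmgcs1, an early enzyme (-1.11, adjusted p = 0.0385 in limma), Fdft1, the squalene synthase (-0.80), Sc5d (-0.91) and Dhcr7 of the last step (-0.60). The medians were -0.64 in Stat3dm and -0.60 in Stat3wt. Desmosome genes, which join epithelial cells, all lay below 0, 10 of 10, with a median of -0.86. The 5 called were the desmosomal cadherins Dsc2 (-1.09, adjusted p = 0.0283) and Dsg2 (-1.12, adjusted p = 0.0366), plakoglobin Jup (-0.84), plakophilin Pkp2 (-0.99) and Perp (-1.11).

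Spliceosomal Sm and LSm proteins had 13 of 13 below 0, a median of -0.60 and 4 calls, Snrpd1, Snrpd2, Snrpd3 and Lsm7. The Sec61 translocon threads new proteins into the endoplasmic reticulum. Grouped with proteins associated with it, 10 of 10 genes lay below 0, with a median of -0.61. The 4 calls were Sec61a1, Sec61b, Sec61g and the associated protein Ssr2. Large subunit proteins of the mitochondrial ribosome gave 6 lower calls among 43, and proteasome subunits 2 among 37, a share near the 4.905% called lower in the brightest 25% of genes. With array spread as a covariate none of the cholesterol, desmosome, Sm and LSm or translocon genes was called, with medians of -0.42, -0.51, -0.30 and -0.24, beside -0.27 for the brightest 25% of all genes without the covariate.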
